A study of Mus musculus with 6 samples.

Results

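The data describe 10 inhibitors of the cell cycle, some controlled by p53 and some not, among the 55421 genes measured in mouse tongue epithelium. The genes were chosen by name and function, with their KO-against-WT values in these 6 libraries already known. That contrast is therefore given for them as a description, and no test of it is used as support. Libraries were made from 3 mice with loxP-flanked Ire1α alleles and no Cre (genotype IRE1F/F, called WT) and from 3 littermates that also carried the tamoxifen-inducible Cre recombinase CreERT2 under the keratin 14 promoter (K14CreERT2 IRE1 F/F, called KO). Keratin 14 is made by basal keratinocytes, so the recombination was directed to the basal layer. There was 1 library per mouse. All mice received tamoxifen on 4 days in a row and were harvested on day 5, and the mucosa was peeled off after an enzyme digestion of 10 minutes at 37 °C. The labels give no age, sex or strain. Cre was present in the KO mice alone, so the presence of Cre and the loss of Ire1α cannot be told apart. Ire1α (gene Ern1) is the endoplasmic reticulum kinase and RNase that senses misfolded proteins.

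A cell enters S phase when cyclin D with Cdk4 or Cdk6, and then cyclin E with Cdk2, inactivate the retinoblastoma protein. The CIP/KIP proteins p21 (Cdkn1a), p27 (Cdkn1b) and p57 (Cdkn1c) bind cyclin-kinase complexes, and the INK4 proteins p16 (Cdkn2a), p15 (Cdkn2b) and p18 (Cdkn2c) bind Cdk4 and Cdk6 alone. Btg1 and Btg2 recruit the CCR4-NOT deadenylase to mRNAs and restrain proliferation, Gadd45a is a stress protein that inhibits the kinase Cdk1, and Plk2 is a polo-like kinase induced by p53. In stratified epithelium p21 and p57 are known for their part in the exit of basal cells from the cycle, and Cdkn1a is the best known direct target of p53.

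Promoter sequences are shown first for 5 of the genes: Cdkn1a because its level was the highest, Btg2, Plk2 and Cdkn2b because they share a short motif, and Cdkn1b because it was lower in KO. RefSeq windows (GRCm38.p6, 250 bases before to 50 after each start) were found for 9 of the 10 genes. Each sequence runs 5′ to 3′ on the gene's own strand and stops before the first base of the gene in RefSeq and GENCODE. In Cdkn1a (chr17:29090729-29090975, plus strand, before the upstream of its 2 RefSeq starts) capitals mark a p53 full site. In Btg2 (chr1:134079156-134079405, minus strand), Plk2 (chr13:110394794-110395043, plus strand) and Cdkn2b (chr4:89311040-89311282, minus strand) capitals mark TGACGTCA, the palindrome bound by CREB and ATF proteins. Cdkn1b (chr6:134920151-134920400, plus strand) held none of the motifs searched.
Cdkn1a: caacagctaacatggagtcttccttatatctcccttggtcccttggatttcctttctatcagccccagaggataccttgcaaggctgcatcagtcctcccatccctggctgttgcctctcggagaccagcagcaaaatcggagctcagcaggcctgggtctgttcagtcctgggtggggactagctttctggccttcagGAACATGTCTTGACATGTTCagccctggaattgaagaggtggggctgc
Btg2: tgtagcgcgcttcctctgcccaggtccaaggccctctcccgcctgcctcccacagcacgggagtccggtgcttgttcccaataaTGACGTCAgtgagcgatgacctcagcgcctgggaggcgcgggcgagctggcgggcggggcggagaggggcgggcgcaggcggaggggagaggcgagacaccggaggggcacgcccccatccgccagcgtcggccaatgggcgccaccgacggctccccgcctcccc
Plk2: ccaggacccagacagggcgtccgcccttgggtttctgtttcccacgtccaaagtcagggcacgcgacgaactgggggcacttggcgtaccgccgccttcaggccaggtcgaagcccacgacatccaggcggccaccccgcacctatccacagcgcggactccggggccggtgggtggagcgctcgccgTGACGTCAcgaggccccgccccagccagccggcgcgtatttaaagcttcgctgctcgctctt
Cdkn2b: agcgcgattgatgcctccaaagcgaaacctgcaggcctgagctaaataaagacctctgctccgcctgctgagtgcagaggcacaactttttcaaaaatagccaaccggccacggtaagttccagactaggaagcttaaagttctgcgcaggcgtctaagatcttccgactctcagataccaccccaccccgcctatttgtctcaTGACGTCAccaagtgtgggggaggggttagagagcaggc
Cdkn1b: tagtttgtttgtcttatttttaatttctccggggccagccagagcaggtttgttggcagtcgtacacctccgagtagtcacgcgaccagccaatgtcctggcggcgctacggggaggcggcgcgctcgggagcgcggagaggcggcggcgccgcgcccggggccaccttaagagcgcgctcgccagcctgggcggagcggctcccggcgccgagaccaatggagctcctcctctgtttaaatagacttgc

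The p53 full site was searched as 2 consecutive half-sites with 0 spacer bases and at most 1 letter off, a form that reads the same on both strands. It was found in 22 of 32851 windows (0.067%), and Cdkn1a was the 1 gene of the 9 that had it. The match, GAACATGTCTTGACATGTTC, is 1 letter off. It lies 51 to 32 bases before the upstream start and 2822 bases before the downstream start, the starts being 2790 bases apart. A single half-site, which is also part of the full site, was in 8.36% of windows and in those of Cdkn1a and Gadd45a. TGACGTCA was in 1.79% of windows and in 3 of the 9 genes. It lay 166 to 159 bases before the start of Btg2, 62 to 55 before that of Plk2 and 46 to 39 before that of Cdkn2b. GTAAACA, a forkhead motif searched on both strands, was in 3.65% of windows and in Btg1. Of the E2F motifs, also searched on both strands, TTTCCCGC was in 1.07% of windows and in Cdkn2a, and TTTGGCGC was in 0.514% and in none of the 9. A match describes these letters in these windows and not a bound site.

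Libraries held 4606309 to 6286153 reads. Values are normalised read counts as the authors deposited them, and groups are given as mean ± SD with n = 3 mice. The kit makes 1 tag near the 3' end of each mRNA, so counts of different genes can be compared without a length correction. The targeted gene Ern1 was at 102, 105 and 77.1 in the 3 WT mice and at 78.0, 117 and 123 in the 3 KO mice, in the order of replicates 1 to 3, as for every gene. The labels do not say which exons are removed, so a 3' tag checks nothing about the deletion. In a whole tissue, fewer cells of a type and less RNA per cell cannot be told apart.

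Across the 10 brakes, Cdkn1a held most of the signal in every library. It made up 81.7% to 87.5% of their summed normalised count in WT and 90.1% to 93.4% in KO. Its mean over the 6 libraries ranked 69 among the 10987 genes that passed the filter on low values, a normalised count of at least 10 in at least 3 libraries. In WT the levels ran from Cdkn1a (5863 ± 479) through Btg1 (465 ± 165), Cdkn1b (183 ± 30.2), Btg2 (150 ± 32.5) and Gadd45a (74.9 ± 23.6) to a group of 4. That group was Cdkn2c (52.8 ± 15.4), Cdkn1c (51.0 ± 9.85), Plk2 (50.7 ± 12.9) and Cdkn2b (49.0 ± 6.93), whose levels did not differ beyond their spread. The libraries of Cdkn1b and Btg2 also overlapped in level, as did those of Gadd45a with Cdkn2c, Cdkn1c and Plk2. Cdkn2a was at the detection limit. In KO, Plk2 (134 ± 29.0) stood above Cdkn1b (93.0 ± 12.7), and Btg2 (271 ± 33.1) stood above both.

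**Figure D1:**
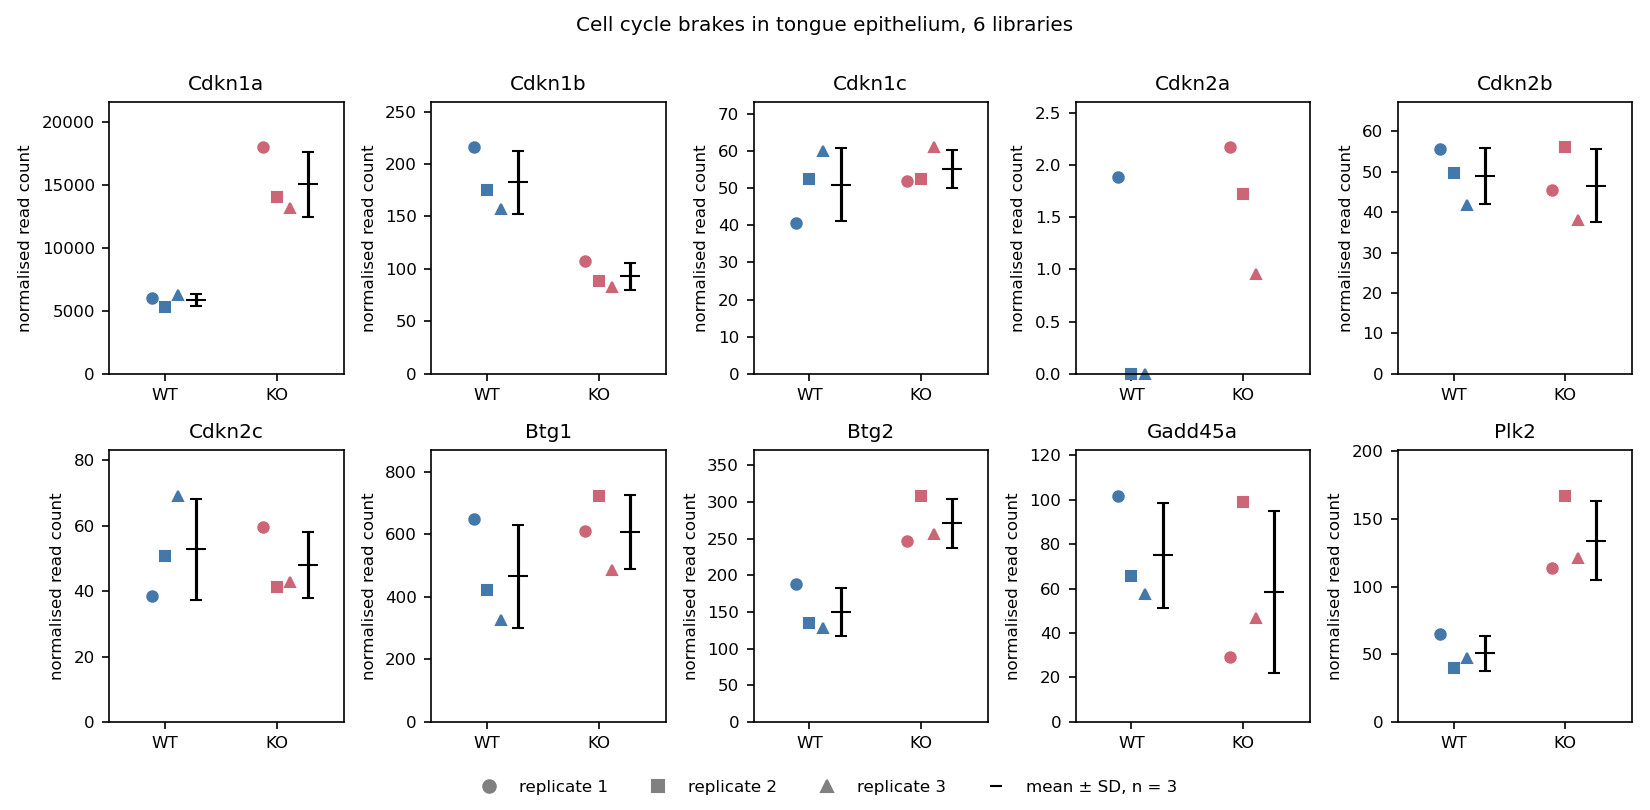
Normalised read count (vertical axis, from 0, a scale for each gene) of the 10 cell cycle brakes in the WT and KO libraries; symbols are single mice, and the bar is the mean ± SD, left out for Cdkn2a. The KO mice lie above the WT mice for Cdkn1a, Btg2 and Plk2 and below them for Cdkn1b, and the groups overlap for the other 6 genes.

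Among the CIP/KIP genes, p21 was higher and p27 lower in KO, and p57 overlapped between the genotypes. Cdkn1a (ENSMUSG00000023067, chr17:29090976-29100727, plus strand, GRCm38 in GENCODE M21, as for all gene positions here) had normalised counts of 6048, 5319 and 6222 in WT, against 17957, 13986 and 13154 in KO. Every KO library was above every WT library, and KO replicate 1 was the highest. The mean went from 5863 ± 479 to 15032 ± 2567, or 2.56-fold, a log2 difference of 1.35 ± 0.21 (SE) on log2(normalised count + 1). Leaving out any 1 library kept the log2 difference between 1.21 and 1.44.

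Cdkn1b (ENSMUSG00000003031, chr6:134920401-134925513, plus strand) went the other way. It gave 216, 175 and 157 in WT and 107, 88.8 and 82.9 in KO, so that the highest KO library was below the lowest WT library. The mean was 1.96-fold lower in KO (183 ± 30.2 and 93.0 ± 12.7), and the log2 difference was -0.96 ± 0.20 (SE). The ratio of Cdkn1a to Cdkn1b was 28.0, 30.3 and 39.7 in WT, against 167, 158 and 159 in KO. It was thus nearly the same in the 3 KO mice, although Cdkn1a itself differed among them.

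Cdkn1c (ENSMUSG00000037664, chr7:143458339-143461050, minus strand) had 40.5, 52.4 and 60.1 in WT and 52.0, 52.6 and 61.0 in KO. The groups overlapped, with a log2 difference of 0.13 ± 0.24 (SE). Cdkn1a made up 95.9% to 96.6% of the sum of the 3 CIP/KIP genes in WT and 98.9% to 99.1% in KO.

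The 2 measurable INK4 genes showed no separation of the genotypes. Cdkn2b (ENSMUSG00000073802, chr4:89306299-89311039, minus strand) had 55.6, 49.7 and 41.8 in WT and 45.5, 56.0 and 38.1 in KO, a log2 difference of -0.08 ± 0.25 (SE). Cdkn2c (ENSMUSG00000028551, chr4:109660876-109667189, minus strand) had 38.6, 50.6 and 69.2 in WT and 59.6, 41.4 and 42.9 in KO, a log2 difference of -0.12 ± 0.28 (SE). Both signs turned when 1 library was left out, with ranges of -0.22 to 0.05 for Cdkn2b and -0.32 to 0.09 for Cdkn2c. These genes rest on 32 to 65 reads a library. With 3 mice per group and adjustment over 10987 genes, changes of several SE could go uncalled, also at higher read counts. In the limma fit given below, Btg2, with 98 to 358 reads a library, was not called at a log2 difference of 0.86 ± 0.20 (SE). Cdkn2a (ENSMUSG00000044303, chr4:89274471-89294653, minus strand), which encodes p16 and, from a shared 3' end, the p53 activator ARF, had 2, 0 and 0 reads in WT and 2, 2 and 1 in KO. Both groups are at or under the 3 reads that a count of 0 allows for counting error, so no fold is given. It did not pass the filter, and tags at the 3' end do not tell p16 from ARF.

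Of the BTG genes, Btg2 separated the genotypes and Btg1 did not. Btg2 (ENSMUSG00000020423, chr1:134075170-134079120, minus strand) had 188, 135 and 128 in WT and 247, 309 and 256 in KO. Each KO library was above each WT library, the means differed 1.80-fold, and the log2 difference was 0.86 ± 0.20 (SE). Btg1 (ENSMUSG00000036478, chr10:96617006-96622809, plus strand) had 647, 422 and 326 in WT and 609, 723 and 487 in KO. WT replicate 1 lay within the KO range, and the log2 difference was 0.42 ± 0.25 (SE). The ratio of Btg2 to Btg1, taken after their values were seen, was 0.290, 0.320 and 0.392 in WT, against 0.406, 0.427 and 0.526 in KO. The groups stayed apart by a narrow margin alone (0.392 and 0.406), and the ratio was not tested.

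The stress-linked brakes differed from each other. Plk2 (ENSMUSG00000021701, chr13:110395046-110400844, plus strand) had 65.0, 40.1 and 47.0 in WT and 114, 167 and 121 in KO. The groups did not overlap, the means differed 2.64-fold, and the log2 difference was 1.39 ± 0.25 (SE). Gadd45a (ENSMUSG00000036390, chr6:67035096-67037457, minus strand) had 102, 65.4 and 57.5 in WT and 29.3, 99.1 and 46.7 in KO, a log2 difference of -0.49 ± 0.40 (SE). Its KO libraries spread more widely than those of any other brake above the filter, with a coefficient of variation of 62.3%, and KO replicate 2 was at the level of WT replicate 1. Gadd45a overlaps E230016M11Rik on the other strand (15.1 ± 0.853 in WT, 11.4 ± 7.25 in KO). The strand setting of the counting is not given, so reads of the pair cannot be told apart.

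By limma over all 10987 tested genes, with Benjamini-Hochberg adjustment at 0.05, 2 of the 9 tested brakes were called higher in KO (Cdkn1a and Plk2) and 1 lower (Cdkn1b). Of all tested genes, 1.22% were called higher and 0.583% lower. Since the contrast was known when the genes were chosen, nothing is read from that count. The count fell to 0 when KO replicate 1, KO replicate 3 or WT replicate 2 was left out. It was 1 (Cdkn1a) without KO replicate 2, and also 1 (Cdkn1a) when the fit held a term for how the libraries are named, described next. Every KO library was above every WT library for 3 of the 9 (9.84% of all tested genes) and below for 1 (9.25%). The authors' deposited table of 341 genes holds 4 of the 10, with log2 fold changes of 1.36 for Cdkn1a, 1.40 for Plk2, 0.85 for Btg2 and -0.98 for Cdkn1b.

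**Figure D2:**
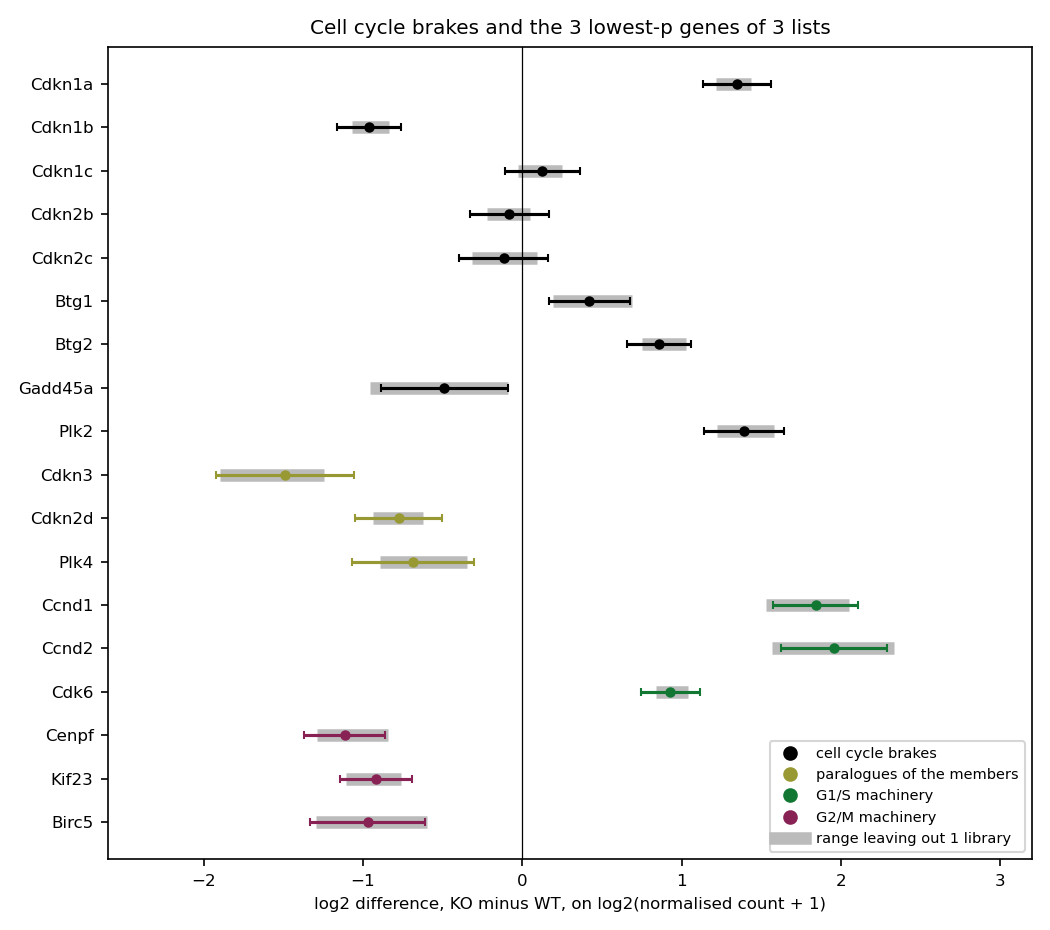
Log2 difference between KO and WT (horizontal axis, on log2(normalised count + 1)) of the 9 tested cell cycle brakes and of the 3 genes with the smallest p in each of 3 lists; points carry ± 1 SE from limma and grey bars span the values with 1 library left out. Cdkn1a, Btg2 and Plk2 lie to the right of 0 and Cdkn1b to the left throughout their grey bars, while those of Cdkn1c, Cdkn2b and Cdkn2c cross 0.

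The names of the libraries have 2 styles, 4 digits for WT replicates 1 and 2 and KO replicate 1 and a letter for the other 3, and the labels do not say what this stands for. In limma with genotype and name style as terms, 0% of all 10987 genes and 0 of the 9 brakes were called for name style. At an unadjusted p under 0.05 there were 483 genes and 0 of the 9. Without WT replicate 3, 3 genes were called for name style. The 4 genes whose groups did not overlap must also stay apart within each style, so these values describe and do not test. With digits, Cdkn1a was 17957 in the KO library against 5319 and 6048 in WT, and with letters it was 13154 and 13986 against 6222. Cdkn1b was 107 against 175 and 216 with digits, and 82.9 and 88.8 against 157 with letters. Plk2 was 114 against 40.1 and 65.0, and 121 and 167 against 47.0. Btg2 was 247 against 135 and 188, and 256 and 309 against 128.

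Within the genotypes, part of the brakes had the same highest libraries, which genotype does not give. Cdkn2b, Btg1, Btg2, Gadd45a and Plk2 were each highest in WT replicate 1 among the WT mice and in KO replicate 2 among the KO mice. That is 5 of the 9 tested brakes, where 18.3% of all tested genes had these highest libraries, the most common combination. Over all tested genes, deviations of WT replicate 1 and KO replicate 2 from their group means correlated at 0.41. The pattern was thus not confined to the brakes. Gadd45a stood 0.48 log2 units above its group's mean in WT replicate 1 and 0.93 above it in KO replicate 2, and Btg1 stood 0.53 and 0.27 above. The CIP/KIP genes did not share these highest libraries. Cdkn1a was highest in WT replicate 3 and KO replicate 1, and Cdkn1b in WT replicate 1 and KO replicate 1. The grouping was seen in the data after they were examined and was not tested.

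**Figure D3:**
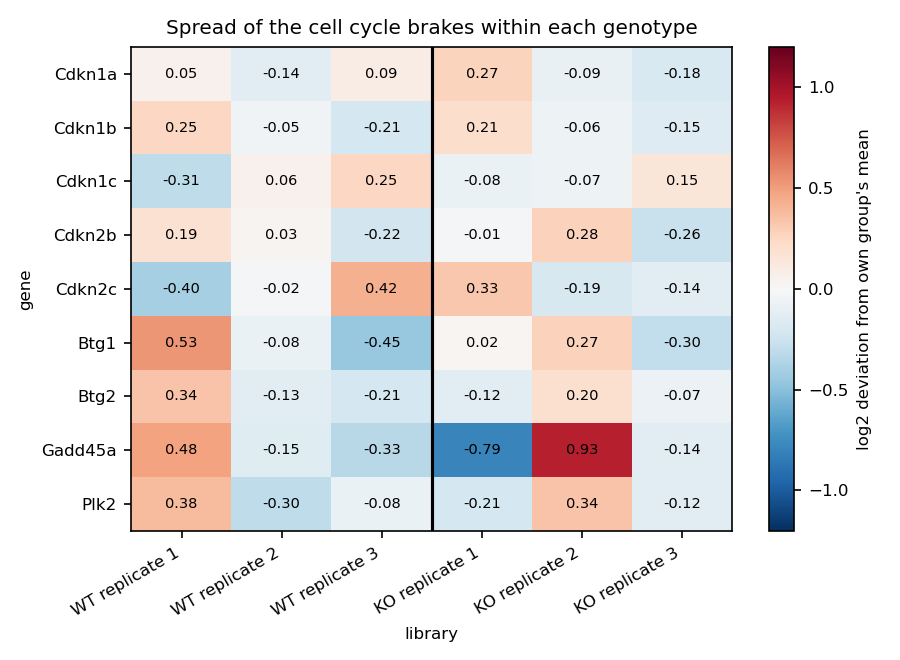
Deviation of each library (horizontal axis) from the mean of its own genotype, in log2(normalised count + 1), for the 9 tested cell cycle brakes (vertical axis); red is above and blue below the group's mean. Btg1, Btg2, Gadd45a, Plk2 and Cdkn2b are above it in WT replicate 1 and KO replicate 2, with 0.93 for Gadd45a in KO replicate 2 as the highest value.

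The basal layer is where Cre acts, and the sum of its markers was higher in KO. The summed count of 7 basal keratinocyte markers was 25654 to 27832 in WT and 36389 to 63175 in KO, and most of it was Krt14 and Krt5. All KO libraries were above all WT libraries for 4 of the 7 markers and below for 2, Krt15 and Trp63. Over all tested genes the shares were 9.84% above and 9.25% below. By limma and by edgeR 1 of the 7 was called, higher, and by DESeq2 4 were called higher (Krt14, Krt5, Itgb4 and Itga6) and 1 lower (Krt15). Limma's call, Itgb4, was lost without KO replicate 1, WT replicate 1 or WT replicate 2. Krt14 had 13185, 13505 and 15243 in WT and 40922, 28447 and 23878 in KO, and was highest in the library where Cdkn1a was highest. Krt15, another basal keratin, had 4815, 5183 and 6177 in WT and 3803, 1183 and 2563 in KO. The ratio of Cdkn1a to Krt14, taken after their values were seen, was 0.459, 0.394 and 0.408 in WT, against 0.439, 0.492 and 0.551 in KO. The groups overlapped in that ratio, and KO replicate 1 lay within the WT range. Krt15 and Trp63 were below WT in every KO library, so Cdkn1a relative to either is higher in every KO library. The reading thus depends on the marker chosen. The part of basal markers in the level of Cdkn1a was not tested.

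**Figure D4:**
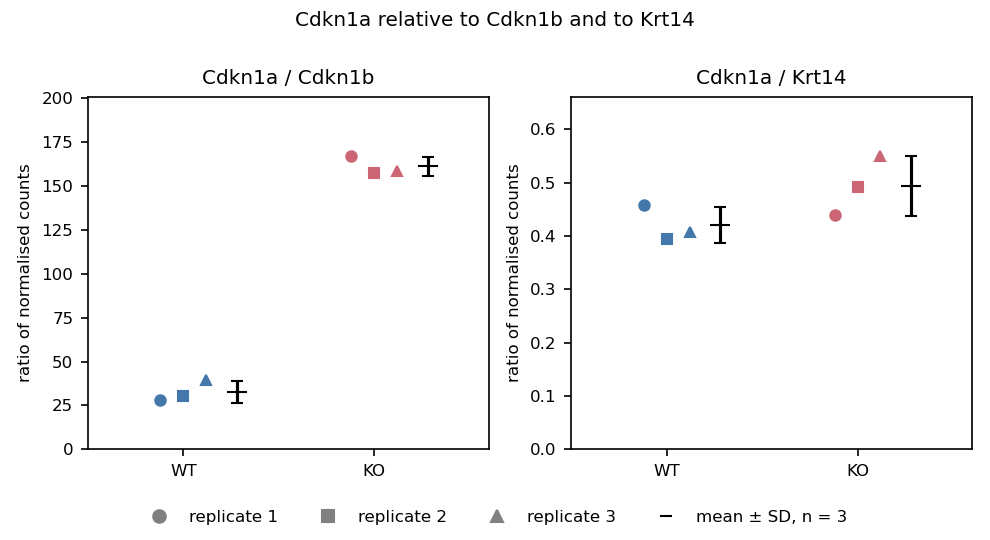
Ratio of the normalised count of Cdkn1a to that of Cdkn1b (left) and of Krt14 (right) in each library, on axes that start at 0, with single mice as symbols and mean ± SD as bars. The ratio to Cdkn1b runs from 28.0 to 39.7 in WT and from 158 to 167 in KO, whereas the ratio to Krt14 overlaps between the genotypes. Other basal markers, Krt15 and Trp63, were lower in every KO library and are not shown.

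Markers of other cells were summed in the same way, and by limma 1 gene in all of these lists was called, the fibroblast gene Dcn. The 12 skeletal muscle markers summed to 2973 in KO replicate 1 and to 133 to 596 in the other libraries, with Acta1 and Tnnc2 at 0 throughout. Without KO replicate 1 the log2 difference was 1.21 for Cdkn1a, 1.50 for Plk2, 0.92 for Btg2 and -1.07 for Cdkn1b. The 7 fibroblast markers summed to 1428 to 1968 in WT and 252 to 1142 in KO, and most of that sum was Dcn (decorin), at 1658, 1329 and 1856 in WT and 530, 195 and 544 in KO. Its call was lost without WT replicate 2. The other fibroblast genes overlapped between the genotypes. Of the 4 fibroblast markers that were tested, Dcn included, 2 had a positive and 2 a negative log2 difference, with a median of 0.27. The collagens Col1a1, Col1a2 and Col3a1 were at 190, 235 and 102 in KO replicate 1 and at 3.45 to 21.7 in the other libraries. The 6 endothelial markers, of which 1 could be tested, summed to 19.6 to 35.8 in WT and 42.9 to 69.3 in KO. The 9 leukocyte markers, with Itgam at 0, overlapped (153 to 231 and 139 to 276). The 7 taste bud markers, of which 0 passed the filter, gave 9.60 to 18.3 and 25.9 to 41.9, and the 5 salivary gland markers in the table, with Bpifa2, Prol1 and Smgc at 0, gave 19.2 to 22.6 and 13.8 to 22.9. The part of these cells in the values of the brakes was not tested.

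Relatives of the brakes outside the list, by family or by gene symbol, gave no call. Of 10 tested relatives 0 passed with limma (2 at an unadjusted p under 0.05, both lower), 0 with edgeR and 0 with DESeq2. Of all 10987 tested genes, 1485 were under that unadjusted p by limma, in either direction. The median log2 difference of the relatives was -0.34, against -0.01 over all tested genes. Cdkn2d, the p19 member of the INK4 family, was at 42.4, 59.3 and 43.1 in WT, against 34.7, 25.0 and 23.8 in KO, with an adjusted p of 0.225 by limma. Cdkn3, a phosphatase that acts on cyclin-dependent kinases, was at 25.8 ± 5.18 and 9.24 ± 5.44 (limma adjusted p = 0.133). It shares a symbol with the CIP/KIP and INK4 genes and is not their paralogue. Plk4, the polo-like kinase of centriole duplication, was at 21.1 ± 0.583 and 13.5 ± 5.16 (limma adjusted p = 0.486). The KO libraries lay below all WT libraries for each of these 3 genes.

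The kinases and cyclins that the brakes act on were read in a list of G1/S genes. In this list 3 of 26 tested rose, 0 fell and 23 did not pass, also with edgeR and DESeq2, and the median log2 difference was 0.16. The 3 were the D-type cyclins Ccnd1 and Ccnd2 and their partner kinase Cdk6, which INK4 proteins bind. Ccnd1 gave 68.8, 94.2 and 78.4 in WT and 444, 250 and 216 in KO (log2 difference 1.84 ± 0.27 (SE), limma adjusted p = 0.00773), and stayed called in each of the 6 fits with 1 library left out. Ccnd2 gave 738, 1098 and 1038 in WT and 6336, 2183 and 3577 in KO (1.96 ± 0.33 (SE), limma adjusted p = 0.0157). KO replicate 1 was the highest library for both cyclins, as it was for Cdkn1a and Krt14. Cdk6 gave 123, 162 and 135 in WT and 239, 290 and 269 in KO (0.93 ± 0.19 (SE), limma adjusted p = 0.0348). Ccnd2 lost its call when WT replicate 2 or KO replicate 3 was removed (adjusted p up to 0.0654 by limma), and Cdk6 did not pass when any 1 library was left out (up to 0.141). The G1/S genes called numbered 1 without WT replicate 2 or KO replicate 3.

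**Figure D5:**
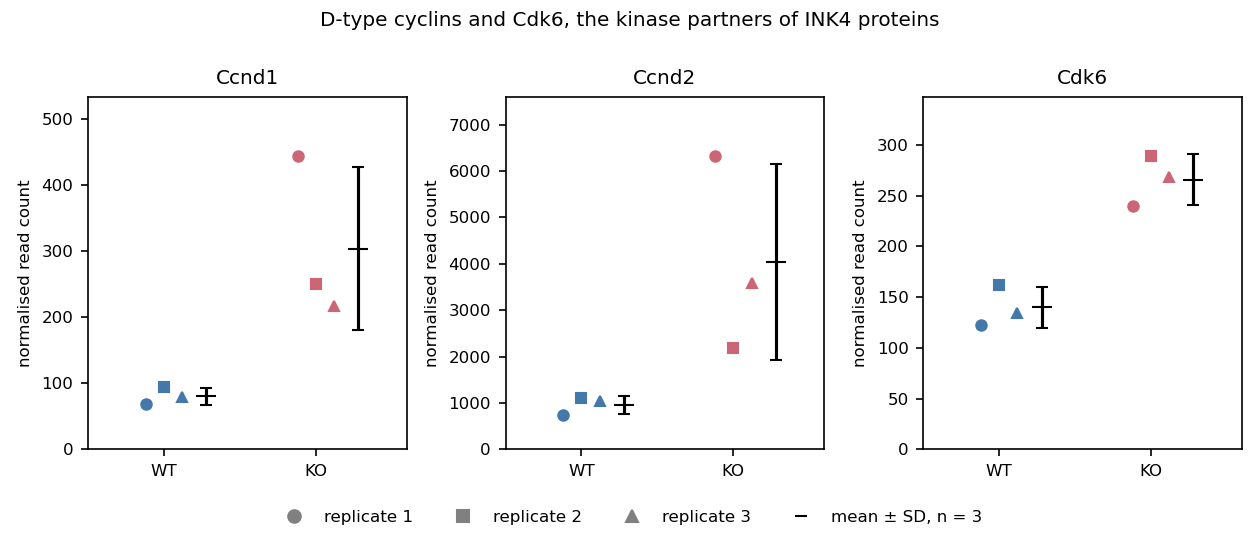
Normalised read count (vertical axis, from 0, a scale for each gene) of the cyclins Ccnd1 and Ccnd2 and the kinase Cdk6 by genotype, with single mice as symbols and mean ± SD as bars. All KO mice lie above all WT mice, and KO replicate 1 is far above the other KO mice for Ccnd2 (6336 against 2183 and 3577).

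In the list of G2/M genes 0 of 13 tested passed with limma (6 at an unadjusted p under 0.05, all lower) and 0 with edgeR, while with DESeq2 Cenpf and Kif23, 2 of them, fell. The median log2 difference was -0.58, and 12 of the 13 were negative. At an unadjusted p under 0.05 by limma there were 1485 of all 10987 tested genes, in either direction. Cenpf, of the kinetochore, averaged 217 ± 34.4 in WT, against 102 ± 30.9 in KO, with an adjusted p of 0.0589 by limma. Kif23, a kinesin of cytokinesis, was at 139 ± 32.6 and 72.1 ± 8.43 (limma adjusted p = 0.0838), and Birc5, survivin, at 109 ± 37.5 and 56.1 ± 22.2 (limma adjusted p = 0.255).

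Of 25 tested p53 targets outside the 10 genes, 12 rose, 0 fell and 13 did not pass, with a median log2 difference of 0.93. Of all tested genes, limma called 1.22% higher and 0.583% lower. By edgeR the calls among the targets were 12 higher and 0 lower, by DESeq2 13 and 1. The list overlaps one examined earlier in these data and is not independent evidence of its direction. Polk, a translesion polymerase, went from 38.9 ± 7.42 in WT up to 146 ± 30.4 in KO, at an adjusted p of 0.00381 by limma. Zmat3, an RNA-binding protein, was at 189 ± 6.21 and 492 ± 51.9 (limma adjusted p = 0.00305). Both stayed called with any 1 library left out, as did Ccng1, Trp53inp1, Tnfrsf10b and Eda2r. These 6 genes rose by 1.37 to 2.51 on the log2 scale. The other 6 (Aen, Mdm2, Psrc1, Bbc3, Sesn2 and Pmaip1) each lost the call in some of those fits. Psrc1, a microtubule regulator, was at 17.4 ± 7.87 and 79.0 ± 15.0 (limma adjusted p = 0.0139), a call lost without KO replicate 1 or KO replicate 3. Sesn2, a sestrin, was at 82.3 ± 5.92 and 158 ± 15.2 (limma adjusted p = 0.0350), a call lost in all 6 fits. Its relative Sesn1 went the other way, with a log2 fold change of -0.88 in the authors' deposited table. Pmaip1, the death gene Noxa, was at 0.942 to 1.75 in WT, which is 1 to 2 reads, and at 17.3 to 41.4 in KO. The count was 7 without KO replicate 1 and 6 without KO replicate 3. Plk2 and Cdkn1a are themselves p53 targets, as Btg2 and Gadd45a are.

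Among 12 tested partners of BTG proteins, mostly CCR4-NOT subunits, 0 passed by limma, by edgeR or by DESeq2, and the median log2 difference was 0.05. By limma, 2 genes were under an unadjusted p of 0.05, against 1485 of all 10987 tested genes. Cnot6l, a deadenylase, averaged 685 ± 67.9 in WT, against 467 ± 30.5 in KO, with an adjusted p of 0.143 by limma. Prmt1, an arginine methyltransferase that binds Btg1 and Btg2, was at 146 ± 47.0 and 267 ± 78.4 (limma adjusted p = 0.151), and Cnot3 at 166 ± 6.21 and 230 ± 62.3 (limma adjusted p = 0.408). Of 23 tested upstream regulators, among them Trp53, the FoxO and Smad factors and Polycomb proteins, 0 passed by any of the tools, with a median log2 difference of -0.02. By limma, 1 of the 23 was under an unadjusted p of 0.05, with the same 1485 over all tested genes. That gene was Trp63, the p53 relative of basal cells, whose mean was 695 ± 96.0 with WT and 465 ± 68.3 with KO, at an adjusted p of 0.170 by limma. Next came Cbx8, a Polycomb protein at the INK4 locus (49.6 ± 9.73 and 35.0 ± 4.50, limma adjusted p = 0.466), and Egr1 (166 ± 31.7 and 231 ± 75.2, limma adjusted p = 0.505).

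The genes most like Cdkn1a over the 6 libraries were Ercc5, Zmat3, Krt6b, Elac2 and Cd81. Likeness was the root mean square difference between log2 values, each centred on its own mean, over 10978 genes outside the brakes. It was 0.07 log2 units for Ercc5, a DNA repair nuclease, 0.08 for Zmat3, an RNA-binding p53 target, and 0.14 to 0.15 for Krt6b, a keratin of injured epithelium, Elac2, a tRNA-processing nuclease, and Cd81, a tetraspanin. The median gene differed by 0.75. The 5 genes had log2 differences between KO and WT of 1.19 to 1.37, against 1.35 for Cdkn1a. Since libraries of both genotypes enter the measure, it largely restates that contrast and is no separate evidence. Ercc5 had 81.1, 68.9 and 86.2 in WT and 233, 208 and 171 in KO, with KO replicate 1 highest as for Cdkn1a.

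Genes within 30000 bases of a brake were read as well, those that passed the filter and, by name, Trp53cor1. Of these 8 neighbours outside the brakes, all KO libraries were above all WT libraries for 1, Trp53cor1, and below for 3. The groups overlapped for 4 (Rab44, Gpr19, Gng12 and E230016M11Rik). Over all tested genes the shares were 9.84% above and 9.25% below. Lockd, a long noncoding RNA on the same strand 3579 bases from Cdkn1b, had 55.6, 106 and 56.2 in WT and 15.2, 20.7 and 40.0 in KO, and was below WT in every KO library as Cdkn1b was. Trp53cor1, known as lincRNA-p21, on the other strand 11797 bases from Cdkn1a, had 4.71, 0.873 and 2.61 in WT and 8.67, 12.1 and 7.62 in KO, and was above WT in every KO library. It did not pass the filter, and in WT replicates 2 and 3 it lay under the 3 reads that a count of 0 allows. Slc22a18, 12686 bases from Cdkn1c, was at 75.8 ± 4.54 and 60.5 ± 7.64, and Faf1, 9399 bases from Cdkn2c, at 667 ± 12.8 and 572 ± 49.2. The neighbours given with values were named after their values were seen and were not tested as a group.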

How the data were processed

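The deposited table holds a normalised read count, a signal, for each gene in each of 6 libraries. The submitters' processing notes list FastQC, STAR, featureCounts and DESeq2 with no version. Build, annotation and strand setting: not given in the sources used here. A second table, the authors' deposited table of called genes, gives log2 fold changes with a Wald score, a p-value and a q-value, according to its columns (per the file headers). Each column was assigned to its sample through the library name in that sample's description.

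Every value was a whole multiple of 1 step per library (100% within 0.01 of a read), which gave back the reads. The genotypes were contrasted by limma 3.58.1 (R 4.3.3, intensity trend, two-sided) on log2(value + 1), which understates changes of low genes, over the 10987 genes that reached 10 in 3 or more libraries. edgeR 4.0.16 and DESeq2 1.42.0 were run on the recovered reads, rounded to whole numbers; edgeR called 190 genes. With 3 mice against 3 an exact permutation test cannot go below 0.1, so none was used. Rows without a symbol (3192, 0.077% to 0.119% of values) carry an identifier and were kept. Of the gene identifiers, 55154 of 55421 matched GENCODE M21.

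The brakes, gene lists and tests were chosen with earlier results of these data known. Named genes are the 10 brakes, the 3 smallest p and every called gene of each list, and the 5 genes most like Cdkn1a. The neighbours, Ern1, Krt14 and the ratios were added after their values were seen. Alternatives were the pseudocount, the filter, the scaling, moderation, library weights, the other tools, a term for name style, a replicate block and each library left out.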

Additional observations from a re-analysis of the deposited data

How the results depend on the processing

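Across alternatives, Cdkn1a (1.21 to 1.45), Plk2 (1.22 to 1.58), Btg2 (0.75 to 1.03), Btg1 (0.18 to 0.69), Cdkn1b (-1.08 to -0.84) and Gadd45a (-0.95 to -0.09) kept the sign of their log2 difference, while Cdkn1c, Cdkn2b and Cdkn2c did not. Of 19 alternatives, Cdkn1a was called in 16, Plk2 in 14, Cdkn1b in 12 and Btg2 in 4. These fits share the same libraries, and the contrast was known when the brakes were chosen. The tally is therefore a description and not support. The brakes called numbered 0 to 3 with 1 library left out and 1 with name style as a covariate. All genes called, 198, became 590 with a weight per library, 368 with DESeq2, 82 with name style as a covariate and 68 to 186 with 1 library left out. G1/S genes called ranged from 1 to 2 and p53 targets from 6 to 13 with 1 library left out. With a weight per library 2 relatives of the brakes, 2 BTG partners and 2 G2/M genes were called. Of the G2/M genes, DESeq2 also called 2, no filter 1 and robust moderation 1. For name style, 0 to 3 genes were called with 1 library left out. The causes of these moves were not tested. With the replicate number as a replicate block 178 genes were called, and the same 3 brakes. The labels do not say whether equal replicate numbers share a litter or day. Deviations from the group means correlated at -0.25, 0.03 and 0.28 across genes for numbers 1 to 3. The highest correlation was 0.41, for WT replicate 1 with KO replicate 2. With 3 mice per group these values cannot decide whether the mice were paired. With 3 mice per group and adjustment over all tested genes, changes of several SE can go uncalled, as for Btg2.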
